A study of Mus musculus with 3 samples.

Results

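M2 nuclei are the nuclei of 1 group of mitral cells, the large excitatory projection neurons whose cell bodies line a single layer of the olfactory bulb. They were taken as the nuclei with subcluster number 1 in the table of nuclei that the authors deposited. This rule gave 1149 of the 7504 nuclei with a subcluster number and of 31703 listed nuclei in all. The nuclei came from the olfactory bulbs of 3 adult C57Bl/6 mice, which formed 1 group with no untreated counterpart. Every mouse had been injected in 2 target areas of the bulb, the piriform cortex (PCx) and also the AON, or anterior olfactory nucleus, with retroAAV-CAG-H2B-GFP, an adeno-associated virus that is carried back along axons and labels nuclei green under a ubiquitous promoter. Nuclei were sorted for the green label, so M2 as described here holds only nuclei that passed the sort. Where each cell took up the virus was not measured. RNA of each mouse was counted in 1 droplet library. The deposited table numbers its subclusters without naming them. The name M2 was rebuilt from the markers Piezo2, Vgll2 and Smpx, and the names M1 (subcluster 5), M3 (7), T1 (0), ET1 (4), ET2 (6) and ET4 (3) from markers of the other mitral (M) and tufted (T, ET) types. All names stand for "like" (M2-like, T1-like), and differences from the study may come from this step.

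Mitral and tufted cells receive input from olfactory sensory neurons on an apical dendrite in a glomerulus, are inhibited by granule cells at dendrodendritic synapses, and send glutamatergic axons to the olfactory cortex. Mitral cells lie deep to the tufted cells, have long lateral dendrites and reach more posterior cortical targets. Types within each class differ in the transcription factors, ion channels, receptors and adhesion molecules that they express.

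M2 was present in each mouse, with 388, 457 and 304 nuclei in mice 1, 2 and 3. M2 took 27.1% of the nuclei of the 7 types in mouse 1, 13.2% in mouse 2 and 20.99% in mouse 3 (20.4% ± 6.95, SD, n = 3 mice). The exact (Clopper-Pearson) 95% intervals, which cover counting error only, ran from 24.8 to 29.4%, from 12.1 to 14.4% and from 18.9 to 23.2%, so the mice differed beyond counting error. Of the nuclei of the mitral types M1, M2 and M3, M2 made up 82.4%, 41.7% and 51.2%. The high share in mouse 1 went with only 14 M1 nuclei in that mouse, against 465 and 207 in mice 2 and 3. The sort and the injection were made mouse by mouse, and their part in the shares was not tested.

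M2 nuclei held more RNA molecules than the pooled nuclei of the 6 other types in each mouse. The median nucleus held 21030, 19594 and 23455 UMIs (unique molecular identifiers, each counting 1 captured molecule) in mice 1, 2 and 3. These medians were 1.59, 1.55 and 1.36 times those of the nuclei of the 6 other types in the same mouse (1.502 ± 0.123, SD, n = 3). Per type over all mice, the medians were 20781 UMIs in M2, 18005 in M1, 15750 in T1 and 5915 in M3. In mouse 3, M1 had the higher median, at 24408 UMIs. Levels are therefore given as CPM (counts scaled to the UMI total of their library), and shares of nuclei with a UMI after each nucleus was thinned to 5000 UMIs, which left 1116 M2 nuclei.

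**Figure D1:**
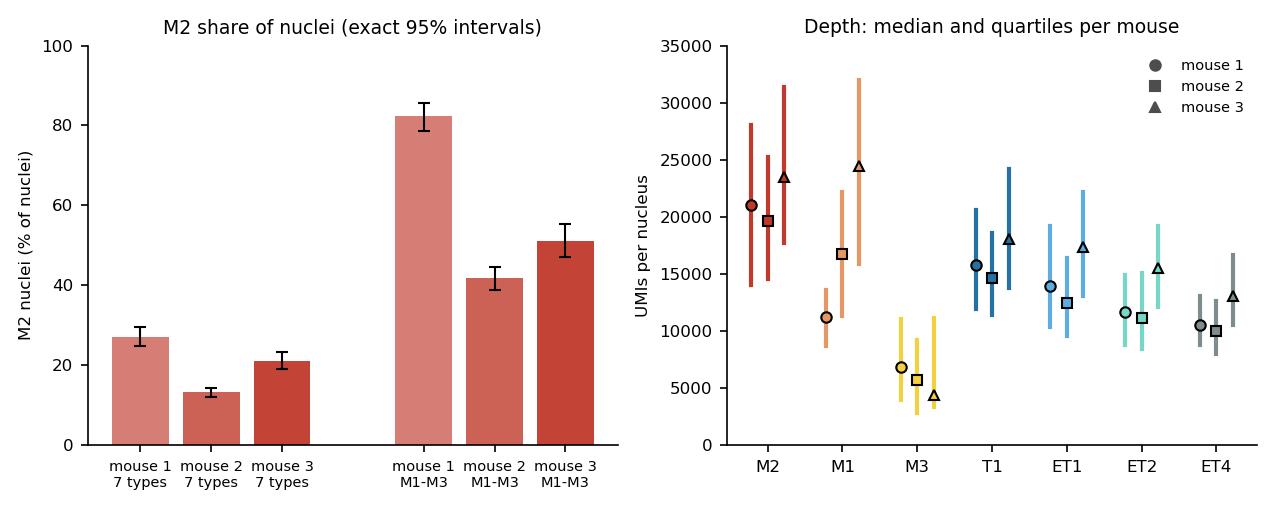
Left, M2 nuclei as percent of the nuclei of the 7 types and of the 3 mitral types in each mouse, with exact 95% intervals. Right, UMIs per nucleus in each type, as the median (symbol, shape by mouse) and quartiles (line). The M2 share lay between 13.2% and 27.1% of the 7 types, and M2 medians lay between 19594 and 23455 UMIs.

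For the comparison of genes, counts were summed per mouse and type into 21 libraries, 3 of M2 and 18 of the other types. The M2 libraries held 7464540 to 9518786 UMIs, and the others 161593 to 16961469. The smallest was the M1 library of mouse 1, with its 14 nuclei, which stood apart from the other M1 libraries: Sema6d, an M2 gene, had 334 CPM there against 41.1 and 24.3, and Ebf1, an M1 gene, had 761 CPM against 2322 and 2437. Results that rest on this library are given with and without it. Of 1149 M2 nuclei, 1122 came from 1 of the main clusters of the authors. The same cluster held 223 of the 326 M3 nuclei, 84 T1 and 7 M1 nuclei, so it does not separate M2 from M3. Between mice, 1 M2 barcode was shared. The 13 glial markers summed to 35.4 to 57.9 CPM in M2 against 37.1 to 131 in the other libraries. Markers of inhibitory neurons summed to 63.4 to 190 CPM in M2 and to 59.8 to 845 in the other libraries. A UMI of Gad1 or Gad2, which make the inhibitory transmitter GABA, was present in 40.7%, 66.3% and 38.5% of M2 nuclei, and the part of such free or mixed RNA in the results was not tested beyond leaving those nuclei out.

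The question was which genes set M2 apart from the other projection neurons. Of 14696 genes with enough counts, 1004 were called higher in M2 than in the mean of the 6 other types (6.83% of genes tested) and 777 lower (5.29%). A gene was called at an adjusted p-value under 0.05 in edgeR's quasi-likelihood test and more than 1 log2 unit of difference. The mean of the 6 other types was taken over their log levels, each type with the same weight, so types near 0 raise the fold change. A gene can be called higher although its plain mean over the 18 other libraries is above M2. Asb11, at a mean of 22.4 CPM in M2 and 30.9 CPM over the 18, was called higher (log2 fold change 1.04). The nuclei had been clustered on these same counts, so a call describes a difference against the spread between mice and is no independent test, and no p-value is given. Of the called genes, 130 (0.885% of genes tested) had all 3 M2 libraries above all 18 others and 71 (0.483%) had all 3 below, and such genes are said to lie apart. Without the small M1 library among the others, these numbers were 154 and 87. Whether libraries lie apart or overlap was read from CPM, without the scaling factors (TMM) that the fit uses. Computed over all genes, these factors were 0.8795 to 0.8968 in M2, 1.098 to 1.189 in M3 and 1.152 in the small M1 library. Close cases in either direction may therefore change with the scaling, which was not tested. The median gene differed by 0.04 log2 units. Of the 6 markers of inhibitory neurons, 1 was called lower in M2, where 5.29% of all genes were. Of 8 mitochondrial genes, which are signs of RNA quality in nuclei, mt-Nd1, mt-Nd4 and mt-Cytb were called lower. The 8 summed to 227 to 394 CPM in M2 and to 231 to 1740 CPM in the other libraries, of which ET4 had 1418 to 1740, and their part in these calls was not tested.

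The 3 markers that gave the type its name were high in all 3 M2 libraries. Piezo2, a large ion channel that opens on mechanical stretch of the membrane, had 63.5, 70.2 and 88.7 CPM in M2 of mice 1, 2 and 3. Its next highest library was M3 of mouse 3, at 58.0 CPM, while the other M3 libraries had 7.26 and 22.1 CPM and T1, ET1, ET2 and ET4 had 5.34 CPM or less. M2 was therefore apart from all 18 libraries, with 1 of them close. The log2 fold change over the mean of the other types was 4.47 ± 0.23 (SE, as for all fold changes below). After thinning, 20.9% of M2 nuclei had a Piezo2 UMI, against 0.648% of the inhibitory nuclei of main cluster 0, which should lack it and served as the background of free RNA. The median depths before thinning were 20781 UMIs in M2 and 7563 in these inhibitory nuclei.

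Vgll2, a cofactor without a DNA-binding domain of its own that partners TEAD transcription factors and is best known from skeletal muscle, had 33.4, 27.1 and 23.7 CPM in M2. The M1 library of mouse 1 had 24.8 CPM, which rests on 4 counts. M1 of mice 2 and 3 had 0 CPM, and without the small library the highest other level was 4.91 CPM, in T1 of mouse 1. Over all libraries, 715 Vgll2 UMIs were counted in M2 and 144 in the other types, a ratio of 15.3 between their CPM. Its fitted log2 fold change of 6.00 ± 0.44 depends on the prior count that the fit adds where libraries are at 0. A Vgll2 UMI was present in 11.02% of thinned M2 nuclei and in 0.0452% of inhibitory nuclei.

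Smpx, a small protein of the muscle cytoskeleton, was low, with most of its counts in M2. It had 10.1, 7.46 and 6.56 CPM in M2, from 205 UMIs, and 12 UMIs in the 6 other types together, a ratio of 52.6 between their CPM. The highest other library, M3 of mouse 1, had 1.81 CPM. With so few molecules, 3.49% of thinned M2 nuclei had an Smpx UMI against 0.105% of inhibitory nuclei, so the gene marks the type as a sum and few nuclei singly.

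A further 7 genes listed by the study for M2 were called higher as well. The list was chosen on these samples, so that its 10 genes given here were all called is not independent evidence of its direction. Ros1, a receptor tyrosine kinase, had 119, 98.8 and 89.6 CPM against 24.8 or less in the 18 other libraries, or 22.4 or less without the small M1 library (log2 fold change 4.46 ± 0.19). Zfp114, a zinc finger protein, had 52.7, 52.1 and 48.4 CPM against 14.5 or less (3.64 ± 0.17). Samsn1, an adaptor protein known from lymphocytes, had 118, 113 and 109 CPM, with T1 next at 46.6 to 61.9 CPM (3.63 ± 0.16). These 3 genes lay apart from all 18 libraries.

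For the remaining 4 genes, M2 overlapped in CPM with at least 1 other library. Whether Sema6d, Itga4 and Itga9 would still overlap after TMM scaling was not tested. Sema6d, a transmembrane semaphorin that guides axons, had 487, 438 and 506 CPM in M2 and 335 to 441 CPM in M3, so these 2 types had overlapping ranges. Itga4 and Itga9, integrin alpha chains that bind the extracellular matrix, differed in their neighbours. Itga4 had 24.8, 19.96 and 23.98 CPM in M2, with M3 of mouse 3 at 22.6 CPM and ET4 at 11.2 to 19.1. Itga9 had 42.4, 37.3 and 35.6 CPM in M2. The small M1 library had 37.1 CPM of Itga9, from 6 counts, and without it the highest other library had 17.5 CPM. Nts, the precursor of the peptide neurotensin, had 8.94, 8.51 and 6.56 CPM in M2 and 50.8, 46.8 and 20.9 in M3, so it was higher in M3 than in M2.

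**Figure D2:**
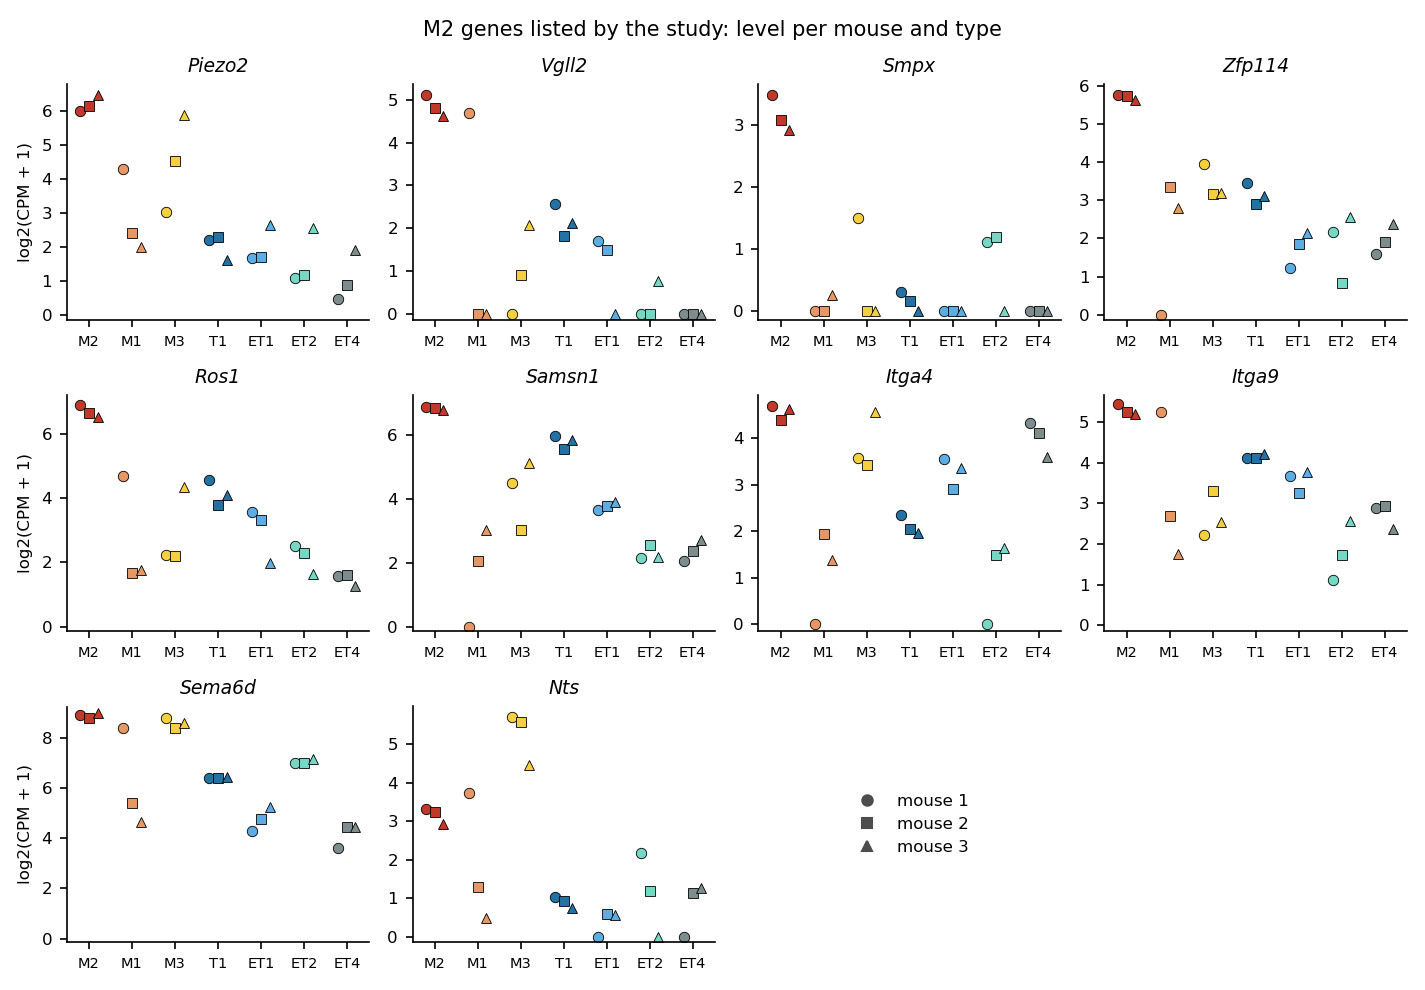
Level of 10 listed genes in each library, as log2(CPM + 1), with the type on the x axis and the mouse by symbol. M2 stands above all other libraries for Piezo2, Smpx, Zfp114, Ros1 and Samsn1, the M1 library of mouse 1 reaches the M2 level for Vgll2 and Itga9, M3 reaches it for Sema6d and Itga4, and Nts is highest in M3.

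At 5000 UMIs the median M2 nucleus had a UMI of 2 of these 10 genes, and 416 of 1116 M2 nuclei (37.3%) had a UMI of at least 3, with 42.2%, 34.5% and 35.5% in mice 1, 2 and 3. The share was 4.55% in M3, 2.97% in T1, 0.604% in M1 and 0.121% in the inhibitory nuclei. In the M1 library of mouse 1, 3 of 14 nuclei had at least 3. Of the 10, Sema6d was found in the largest share of M2 nuclei, 74.6%, but was also present in 45.8% of inhibitory nuclei, so a Sema6d UMI alone does not mark M2.

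Vgll2 and Ros1 are neighbours in the genome. In the GRCm38 annotation, Vgll2 lies at chr10:52022502-52028471 on the plus strand and Ros1 at chr10:52045721-52195244 on the minus strand, with their 3′ ends facing and 17249 bases between them. In mouse 1, 47.7% of thinned M2 nuclei with a Vgll2 UMI had a Ros1 UMI, against 32.6% of those without. The shares were 77.4% and 25.1% in mouse 2, and 61.5% and 23.3% in mouse 3. The joint occurrence held in all 3 mice. Whether reads past the end of 1 gene were counted for its neighbour was not tested. Piezo2 showed no such link with Ros1: 30.9% of M2 nuclei with a Piezo2 UMI and 31.0% of those without had a Ros1 UMI. Genes on other chromosomes differed with Vgll2 in both directions. Over all mice, Zfp114 was present in 28.5% of M2 nuclei with a Vgll2 UMI and 18.4% of those without. For Sema6d the shares were 65.9% and 75.6%.

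The promoters of the leading M2 genes were searched for the binding letters of the TEAD partners of Vgll2 (GGAATG) and of T-box factors such as Tbx21 (GGTGTGA), on both strands, in the 300 bases around each RefSeq start site (250 before and 50 after, GRCm38.p6). Neither motif is contained in the other. Of 18 genes, 12 had an entry. The TEAD letters were in 3 of the 12 (Ros1, Traf1 and Gm3173) and, counted the same way, in at least 1 promoter of 16.6% of all 27025 genes with an entry. The T-box letters were in 2 (Itga4 and Samsn1) and in 4.6% of all genes with an entry. The 250 bases before the start are shown for the neighbours Vgll2 and Ros1 and for the 2 genes with T-box letters, with the motif in capitals and the rest in lower case. In Ros1 the letters read CATTCC, since this match is on the opposite strand, from -239 to -234 of the start. A second Ros1 match, on the strand of the gene from 22 to 27 bases after the start, lies beyond the bases shown. In Itga4 they lie from -165 to -159 and in Samsn1 from -202 to -196. The Vgll2 window held neither motif, which says only that these letters are not in it. The windows are chr10:52022252-52022501 (plus strand) for Vgll2, chr10:52195245-52195494 (minus) for Ros1, chr2:79255176-79255425 (plus) for Itga4 and chr16:75909267-75909516 (minus) for Samsn1, whose entry is an internal start of the gene.
Vgll2: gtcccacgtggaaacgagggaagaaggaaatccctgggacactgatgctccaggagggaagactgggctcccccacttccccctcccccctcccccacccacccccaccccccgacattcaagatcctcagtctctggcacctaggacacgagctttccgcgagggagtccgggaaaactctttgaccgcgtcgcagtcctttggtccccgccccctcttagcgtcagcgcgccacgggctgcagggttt
Ros1: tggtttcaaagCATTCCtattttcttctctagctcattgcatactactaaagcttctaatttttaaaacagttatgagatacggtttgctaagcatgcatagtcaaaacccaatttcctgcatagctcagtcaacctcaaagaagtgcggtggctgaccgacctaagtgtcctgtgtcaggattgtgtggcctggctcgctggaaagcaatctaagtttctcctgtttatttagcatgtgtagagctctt
Itga4: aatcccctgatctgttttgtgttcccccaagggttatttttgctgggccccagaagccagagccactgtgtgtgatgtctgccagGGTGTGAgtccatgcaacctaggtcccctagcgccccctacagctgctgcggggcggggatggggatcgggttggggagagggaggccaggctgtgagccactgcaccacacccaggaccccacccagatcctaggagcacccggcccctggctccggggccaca
Samsn1: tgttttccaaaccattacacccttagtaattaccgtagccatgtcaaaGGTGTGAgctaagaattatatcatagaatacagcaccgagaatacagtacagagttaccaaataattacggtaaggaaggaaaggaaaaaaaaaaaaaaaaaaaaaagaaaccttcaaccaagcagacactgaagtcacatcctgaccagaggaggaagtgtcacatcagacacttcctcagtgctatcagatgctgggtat

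Further genes with M2 apart from all 18 libraries, a mean of at least 10 CPM and a large fold change were Klhl30, Traf1, Fam19a3, Bean1, Gm3173, Tec and Tmcc3os. Klhl30, of the Kelch family of ubiquitin ligase adaptors, had 15.8, 12.1 and 12.5 CPM in M2 and 3.63 CPM or less elsewhere (log2 fold change 4.11 ± 0.28). Traf1, an adaptor of tumour necrosis factor receptors, had 16.1, 10.5 and 11.2 CPM with a nearest library at 10.3 (3.67 ± 0.33). Tec, a non-receptor tyrosine kinase of immune cells, had 20.97, 13.9 and 15.9 CPM with ET1, T1 and ET4 next at means of 6.75 to 7.68 CPM, and 0 counts in M3, which allows up to 1.3 CPM. Bean1, a membrane protein that binds the ubiquitin ligase Nedd4, had 67.0, 65.0 and 63.2 CPM with ET1 next at a mean of 31.5 (3.61 ± 0.18).

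In direct comparisons, 52 genes (0.354% of genes tested) were called higher in M2 than in each of the 6 other types. Another 27 (0.184%) were called lower than in each. Of the 52, 38 were protein coding and 13 lay within 100000 bases of another of the 52, such as Kcnab1 with A330015K06Rik, and Far2 with Far2os1 and Far2os2, so that overlapping transcripts may count 1 signal more than once. Smpx, Vgll2, Piezo2, Ros1, Zfp114, Samsn1 and Itga9 were among the 52, of which Vgll2 was not called against M3 by DESeq2 (log2 fold change 4.59, with 3 Vgll2 counts in M3). Without mouse 2 the counts were 34 and 17, and without the small M1 library 52 and 29. Some genes of this group were singled out after their values were seen. Trdn, a protein of the calcium release complex of muscle, had 237, 189 and 194 CPM in M2 against means of 7.06 to 64.2 in the other types. Miat, a long noncoding RNA of neuronal nuclei, had 228, 183 and 184 CPM against 71.9 or less (3.27 ± 0.13). Lama4, a laminin chain, had 52.7, 51.9 and 57.5 CPM against means of 1.18 to 18.6. Creb5, a transcription factor that binds cyclic AMP response elements, had 122, 111 and 132 CPM against means of 4.63 to 58.2.

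Genes low in M2 were named when M2 lay apart below all 18 libraries. Grik4, a kainate-type glutamate receptor subunit, had 1.07, 0.735 and 0.67 CPM in M2, while ET2 had a mean of 317 CPM and T1, the nearest, 2.99 (log2 fold change -4.37 ± 0.31). Kcnj6, an inwardly rectifying potassium channel opened by G proteins, had 5.48, 14.5 and 4.02 CPM in M2 and means of 29.5 to 278 CPM in the others (-3.42 ± 0.29), and the highest M2 library touched the lowest other library to 3 digits. Slc8a1, a sodium-calcium exchanger, had 18.6, 36.4 and 21.97 CPM in M2 and 67.7 or more in the others (-3.12 ± 0.26). Khdrbs2, a splicing regulator, had 54.3, 75.4 and 60.8 CPM against 78.1 or more (-3.25 ± 0.31). Vwc2l, Cpne2, Gm9925 and Gm13710 completed the 8 genes of this rule, with M2 at 2.01 CPM or less in each library.

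Among regulators of transcription, 5 of 49 measured factors of projection neurons were called higher in M2 and 12 lower, against 6.83% and 5.29% of all genes tested, with a median log2 fold change of -0.56 against 0.04 for all genes tested. Tbx21, a T-box factor found in mitral and tufted cells, had 96.3, 91.4 and 73.0 CPM in M2 and a mean of 75.5 in M1, was called higher than 5 of the other types and overlapped with M1 (2.69 ± 0.20). Tshz2, a zinc finger homeobox factor, had 1936, 1742 and 1868 CPM, just above the 1674 of the nearest library (1.86 ± 0.10). Foxo1, a forkhead factor, had 4.17, 5.36 and 6.56 CPM in M2 against means of 133 in M3 and 366 in ET4 (-2.79 ± 0.16). Zfhx4 was lower in M2 than in all 18 libraries, at 5.24, 11.03 and 6.70 CPM (-2.52 ± 0.19). In the pathway around Vgll2, 1 of 18 measured genes was called higher, Vgll2 itself, and 2 lower. Tead1, which encodes a partner of Vgll2, had 42.7, 45.4 and 44.7 CPM in M2, within the 14.8 to 61.9 CPM of the others, and was not called.

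Potassium channel genes were called in both directions. Of 31 voltage-gated subunits measured, 4 were called higher and 6 lower (median 0.20), against 6.83% and 5.29% of all genes tested. Kcnd3, which forms the fast inactivating A-type current, had 280, 249 and 238 CPM in M2 against 210 or less in all other libraries, or 163 without the small M1 library (2.29 ± 0.11). Kcnab1, a beta subunit that speeds inactivation of Kv1 channels, had 195, 156 and 161 CPM against 113 or less (2.07 ± 0.12), while 3 of the 9 measured auxiliary subunits of A-type channels were called lower. Kcnc2, which carries fast repolarising current, had 8.94, 11.98 and 4.69 CPM and was called lower (-2.47 ± 0.20). Among sodium, calcium and HCN channels, 4 of 28 were called higher and 4 lower, to be read against the same shares. Cacna1h and Cacna1i, both pore subunits of low-threshold T-type calcium channels, were called in opposite directions, Cacna1h higher (2.13 ± 0.18) and Cacna1i lower (-3.08 ± 0.35). Cacna1h was nonetheless higher in T1, with a mean of 43.4 CPM against 32.5, 21.6 and 18.4 in the M2 libraries. Of 13 measured mechanosensitive channels and partners, Piezo2 and Tmem150c were called higher and Trpc6 lower, and Piezo1 had 1.55 CPM or less in each M2 library.

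At the synapse, 4 of 18 ionotropic glutamate receptor subunits were called higher and 3 lower (median -0.20), where 6.83% and 5.29% of all genes were called. Grin2c, an NMDA receptor subunit, had 78.0, 58.1 and 54.7 CPM in M2 and a mean of 55.3 in T1, and 13.9 CPM or less on average in the other types (3.56 ± 0.19). Gria3, an AMPA receptor subunit, had 6.08, 13.1 and 6.97 CPM in M2 and a mean of 224 in ET4 (-2.51 ± 0.43). Of the measured cerebellins, C1q-like proteins and neurexins, 3 of 8 were called higher and 2 lower (median -0.39). Among the higher ones was Cbln1, at 36.2, 27.3 and 44.1 CPM in M2 and a mean of 147 CPM in M3. The transporters that load glutamate into vesicles differed: Slc17a6 had 9.06, 12.5 and 14.5 CPM in M2, below all 18 other libraries (-2.73 ± 0.16), and Slc17a7 had 310, 272 and 307 CPM and was not called. Among GABA receptors, 3 of 14 were called higher and 4 lower, with Gabbr2, a subunit of the metabotropic receptor, at 2.15, 3.57 and 2.01 CPM (-2.88 ± 0.22).

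Genes of axon guidance were called in both directions. Of 30 measured ephrins, Eph receptors, Slits, Robos and netrin receptors, 5 were called higher and 9 lower, against 6.83% and 5.29% of all genes tested. Dcc, a receptor for netrins, had 1630, 1316 and 1343 CPM in M2, above the 806 CPM of the nearest library, an M1 library (2.97 ± 0.14), and was higher than in each of the 6 types. Robo1, a receptor for Slit proteins, had 2400.0, 2223 and 2153 CPM in M2 and a mean of 2499 in M1, so it was shared between these mitral types (2.32 ± 0.15). The lower ones included Ephb1, at 2.62, 2.84 and 1.21 CPM in M2 and a mean of 467 in ET2 (-2.65 ± 0.32). Of 8 plexins and neuropilins, the receptors of semaphorins, 4 were called higher, and the list had a median log2 fold change of 1.0. Plxnc1 was apart from all other libraries, at 60.5, 54.1 and 66.5 CPM (1.54 ± 0.12). Of 18 semaphorins, 4 were called higher and 2 lower, and of 17 integrins 3 higher and 2 lower, with the same shares of all genes beside them. Itga8 had 0.953, 1.05 and 0.67 CPM in M2 and a mean of 195 in ET4 (-2.83 ± 0.38).

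Of 20 measured genes of glycogen metabolism, best known from liver and muscle, 2 were called higher, against 6.83% of all genes tested, and 7 had their highest mean in M2, a position that 6.88% of all genes tested had. Ppp1r3b, which brings protein phosphatase 1 to glycogen, had 9.53, 9.46 and 8.17 CPM in M2 and 0.706 CPM or less in each other library. Its fitted fold change of 5.77 ± 0.39 depends on the prior count, since M3 had 0 counts and ET1 1. Phka1, a phosphorylase kinase subunit, had 54.3, 50.4 and 50.1 CPM and a mean of 50.1 in ET2 (1.45 ± 0.13). The summed level of all 23 genes of the list, with the 3 not tested, was 507 to 580 CPM in M2 and 329 to 508 in the others. These ranges just overlapped. Of 17 measured muscle and cytoskeletal genes, 5 were called higher and 1 lower, against the same 6.83% and 5.29% of all genes. Cobl, an actin nucleator of dendrites, had 128, 134 and 146 CPM in M2 and a mean of 232 in M1 (2.75 ± 0.11). Ldb3, a protein of the muscle Z-disc, had 19.8, 13.3 and 12.7 CPM against 12.3 or less (1.54 ± 0.26). Nell1 and Nell2, secreted proteins of the family that binds Ros1, were called higher (1.63 ± 0.11 and 1.57 ± 0.16). Nell2 was apart at 130, 127 and 136 CPM, above the 124 CPM of the small M1 library and, without it, the 93.5 CPM of the next.

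Of 21 measured neuropeptides and granins, 2 were called higher and 6 lower (median -0.84), against 6.83% and 5.29% of all genes tested. Cck, the precursor of cholecystokinin, had 123, 134 and 105 CPM in M2 and means of 148 in M1, 688 in T1 and 775 in M3 (-1.77 ± 0.19). Of 14 immediate early genes, which respond to recent activity and to handling, 5 were called lower (median -1.24), against 5.29% of all genes, of which Bdnf, Fosl2 and Nr4a2 were not called with 1 of the mice left out. Fos had 0.953, 6.72 and 3.75 CPM in M2, with M2 of mouse 2 the highest, and means of 6.82 in T1 to 36.7 in ET4 (-1.98 ± 0.42).

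**Figure D3:**
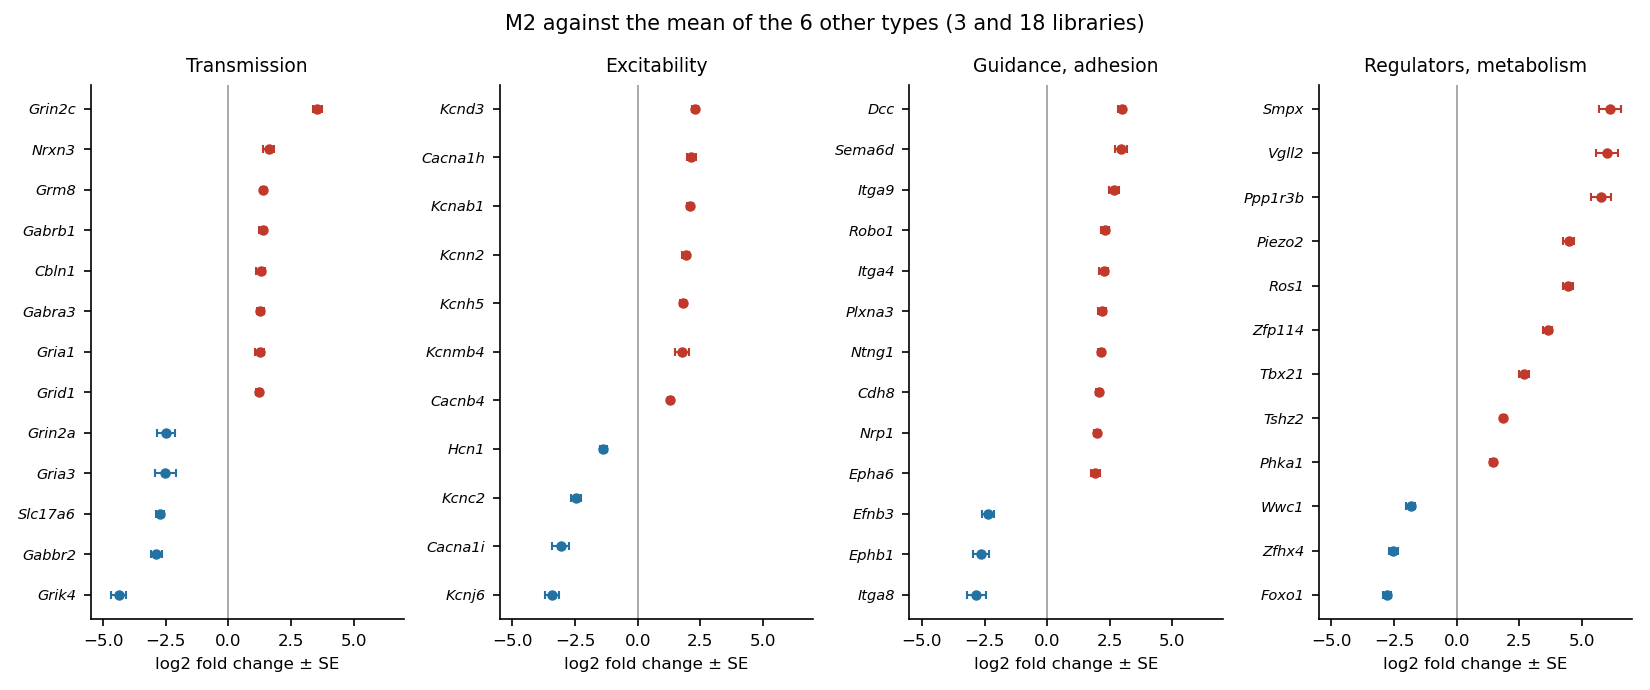
Log2 fold change of M2 over the mean log level of the 6 other types for named genes of 4 functional groups, with bars for the SE. Smpx, Vgll2 and Ppp1r3b stand farthest to the right, between 5.77 and 6.13, Grin2c leads the receptors at 3.56, and Grik4 is farthest to the left at -4.37.

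Of the other types, T1 had the highest correlation of mean log levels with M2 (r = 0.944 across 11237 genes, which are not independent). ET1 followed at 0.901, M1 at 0.898 and M3 at 0.884. M2 was then set against the 2 other mitral types and against T1. These comparisons share the M2 libraries, and the types differ in depth, so their counts of calls cannot be compared as distances. Against M1, 895 genes were called higher (6.09%) and 1010 lower (6.87%), and called genes with libraries that did not overlap were 4.91% and 4.28% of genes tested. Nrp1, a receptor for class 3 semaphorins, had 399.9, 411 and 430.3 CPM in M2 and 43.3, 8.03 and 5.78 in M1 (log2 fold change 5.81 ± 0.26). A1bg and Asb11 were at 21.6 to 32.9 CPM in M2 and at 1.44 CPM or less in M1. Ebf1, a helix-loop-helix factor of neuronal differentiation, had 1.07, 34.7 and 11.8 CPM in M2 and 761, 2322 and 2437 in M1 (-6.76 ± 0.76). Lhx5, a LIM homeobox factor, had 0.42 CPM or less in M2 and 6.19, 22.6 and 20.9 in M1 (-6.21 ± 0.52), and Doc2b, a calcium sensor of vesicle release, had 2.94 or less and 24.8, 109 and 106 (-6.20 ± 0.51). The M1 library of mouse 1 lay toward M2 for Nrp1, Ebf1, Lhx5 and Doc2b. Without it, the log2 fold changes were 5.96 for Nrp1, -7.13 for Ebf1, -6.32 for Lhx5 and -6.38 for Doc2b, and 922 genes were called higher and 1135 lower.

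Against M3, 1085 genes were called higher (7.38%) and 1443 lower (9.82%), or 6.91% and 9.08% with libraries that did not overlap, and the median gene was at 0.11 log2 units. M3 libraries held 550818 to 1132800 UMIs, so low genes rest on few counts there. The signs of RNA quality moved with this comparison too. The 8 mitochondrial genes were all called lower in M2 than in M3 (log2 fold change -1.52 to -1.16) and summed to 287, 394 and 227 CPM in M2 and 665, 1284 and 730 CPM in M3. The median nucleus had 0.03% of its UMIs from mitochondrial genes in M2 and 0.093% in M3. Of the nuclear RNAs beside them in that list of 12 genes, Miat was called higher in M2 and Malat1, Meg3 and Snhg11 were not called. The part of RNA quality in the comparison with M3 was not tested. Lepr, the leptin receptor, had 20.02, 13.8 and 19.4 CPM in M2 and 3.63, 0 and 0 in M3. Wnt9a, a secreted Wnt ligand, had 17.99, 17.02 and 11.5 CPM in M2 and 1.81, 0.883 and 0 in M3. Calca, the precursor of calcitonin gene-related peptide, had 0.84 CPM or less in M2 and 69.0, 41.5 and 30.6 in M3 (-6.49 ± 0.55). Cdkn1c, an inhibitor of the cell cycle, had 0.596 or less and 52.6, 32.7 and 29.0 (-6.15 ± 0.55), and Mustn1, a small nuclear protein of muscle and skeleton, 0.268 or less and 18.1, 17.7 and 8.06. Tec and Vgll2 were also among the 5 leading genes higher in M2 than in M3, and Vgll2 was not called there by DESeq2.

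Against T1, 658 genes were called higher (4.48%) and 531 lower (3.61%), or 4.42% and 3.59% with libraries that did not overlap. Cdh4, a cadherin of cell adhesion, had 288, 274 and 332 CPM in M2 and 4.21, 11.97 and 5.19 in T1 (5.34 ± 0.33). Ptger3, a prostaglandin receptor, had 51.6, 50.4 and 69.1 CPM in M2 and 1.99, 1.42 and 0.769 in T1 (5.39 ± 0.34). Npr3, a natriuretic peptide receptor, had 13.2, 8.51 and 8.98 CPM in M2 and 0.177 or less in T1. Barhl2, a homeobox factor, had 2.03, 2.42 and 0.804 CPM in M2 and 63.5, 60.1 and 63.4 in T1 (-5.07 ± 0.28). Vdr, the vitamin D receptor, had 1.79, 2.31 and 1.61 CPM in M2 and 42.8, 37.3 and 44.3 in T1 (-4.39 ± 0.36).

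**Figure D4:**
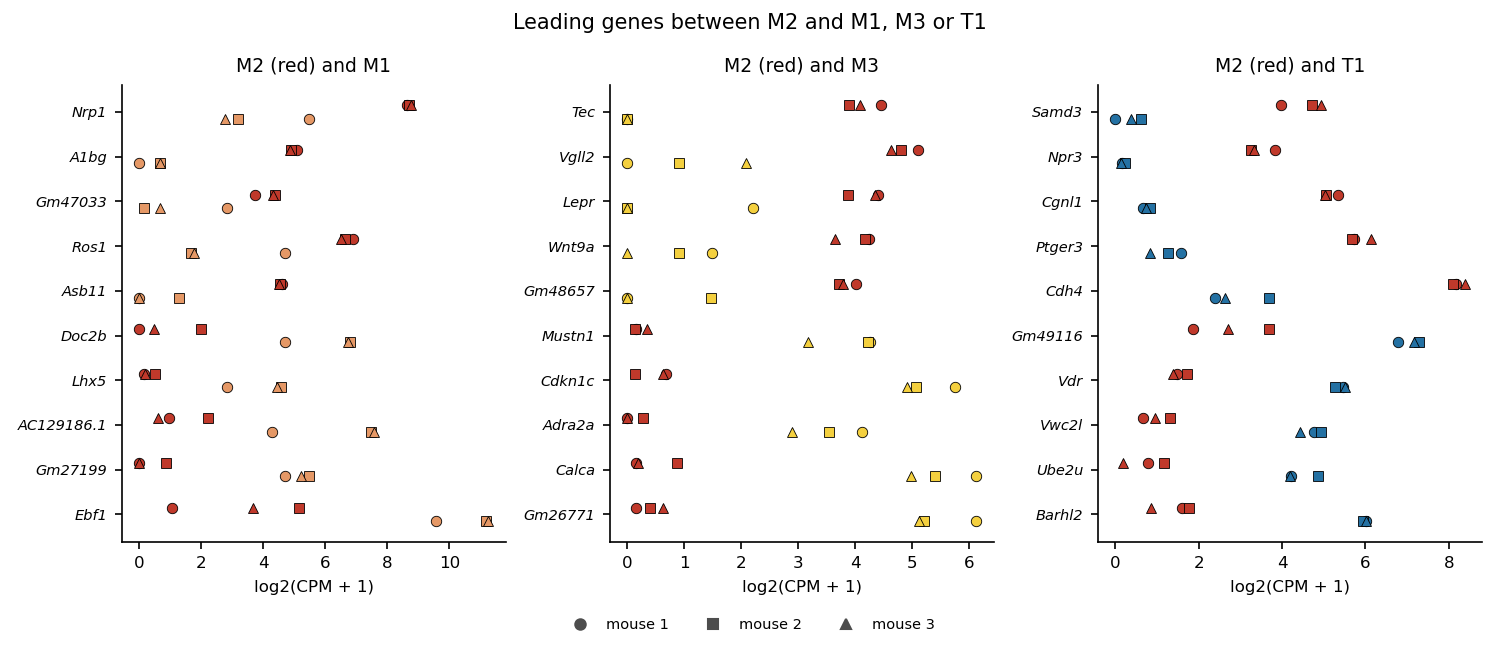
Level of the leading genes in each library of M2 (red) and of M1, M3 or T1, as log2(CPM + 1), with the mouse by symbol. The M1 library of mouse 1 (circles in the left panel) lies nearer to M2 than the other M1 libraries for Nrp1, Ros1 and Ebf1, and Tec is at 0 in all M3 libraries.

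M2 nuclei also differed among themselves. In nuclei thinned to 10000 UMIs (1024 M2 nuclei), 4460 genes had a mean of at least 0.3 UMIs in each mouse. Ranked by the variance beyond counting, as (variance minus mean) over the squared mean, and taking the lowest of the 3 mice, the leading 10 were Gm30835, Adarb2, Cul4b, Olfr115, Olfr112, Dab1, Olfr111, Brinp3, Cntnap5b and Rbfox1. Their lowest values ran from 3.65 to 9.39, and the median gene had 0.322. Gm30835, a noncoding RNA that was also higher in M2 than in each other type, had no UMI in 84.8% of nuclei and up to 14 in 1 nucleus.

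Olfr111, Olfr112 and Olfr115 encode odorant receptors, are neighbours on chr17 and are related in sequence, so that reads may be divided among them. Across M2 nuclei the counts of Olfr115 and Olfr111 had correlations of 0.825, 0.815 and 0.804 within mice 1, 2 and 3, as a description. An Olfr111 UMI was present in 240 of 1116 M2 nuclei at 5000 UMIs (21.5%), with 21.7%, 24.0% and 17.6% in the 3 mice. It was present in 94.7% of T1 and 72.2% of ET1 nuclei, in 1.32% to 3.98% of the nuclei of M1, M3, ET2 and ET4, and in 1.13% of inhibitory nuclei. M2 was therefore between T1 and ET1 on 1 side and the 4 remaining types on the other, and above the background of free RNA in each mouse.

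M2 nuclei with and without an Olfr111 UMI were set side by side after these values were seen, as a description. Piezo2 was present in 7.08% of those with Olfr111 and 24.7% of those without, and Sema6d in 51.25% and 80.9%. Gabrb1, a GABA receptor subunit, was in 57.9% and 92.6%, Cdh4 in 25.8% and 67.7%, and Gpc6, a glypican, in 25.8% and 72.5%. All 5 were lower with Olfr111 in each of the 3 mice. In the other direction, Ros1 was present in 44.2% of nuclei with Olfr111 and 27.4% of those without, Vgll2 in 18.3% and 9.02%, and Samsn1 in 44.6% and 32.5%. Astn2, an astrotactin of neuronal adhesion, was in 86.7% and 40.1%, Cux1, a homeobox factor, in 87.9% and 49.4%, and Rbfox1, a splicing regulator, in 45.8% and 14.4%. These 6 were higher with Olfr111 in each mouse. Of the 10 listed M2 genes, 5 were lower with Olfr111 in all 3 mice (Sema6d, Piezo2, Itga4, Nts and Smpx). Another 4 were higher in all 3 (Ros1, Samsn1, Vgll2 and Itga9), and Zfp114 was higher in 2 of the 3. Smpx and Nts rest on few nuclei: Smpx was in 1.67% of nuclei with Olfr111 and 4.0% of those without, and Nts in 2.08% and 4.11%.

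Nuclei with Olfr111 were compared with T1 for the same genes. Barhl2 was present in 0.833% of M2 nuclei with Olfr111, 0.228% of those without and 25.4% of T1 nuclei with Olfr111. Of the 11 genes with values above, M2 nuclei with Olfr111 lay between M2 nuclei without it and these T1 nuclei for 8. Astn2 was in 97.6%, Cux1 in 90.7% and Rbfox1 in 61.5% of the T1 nuclei. Gabrb1 was in 36.7%, Sema6d in 27.6%, Gpc6 in 9.2%, Cdh4 in 2.67% and Piezo2 in 1.29% of them. For the remaining 3, the T1 nuclei were below both sets of M2 nuclei, with Samsn1 in 17.2%, Ros1 in 5.04% and Vgll2 in 1.13%. The M2 nuclei with Olfr111 had a median of 24968 UMIs before thinning and those without 20394, and 225 of the 240 and 872 of the 876 were in the same main cluster. The part of nuclei caught in pairs, or of cells lying between subclusters, in this split was not tested.

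**Figure D5:**
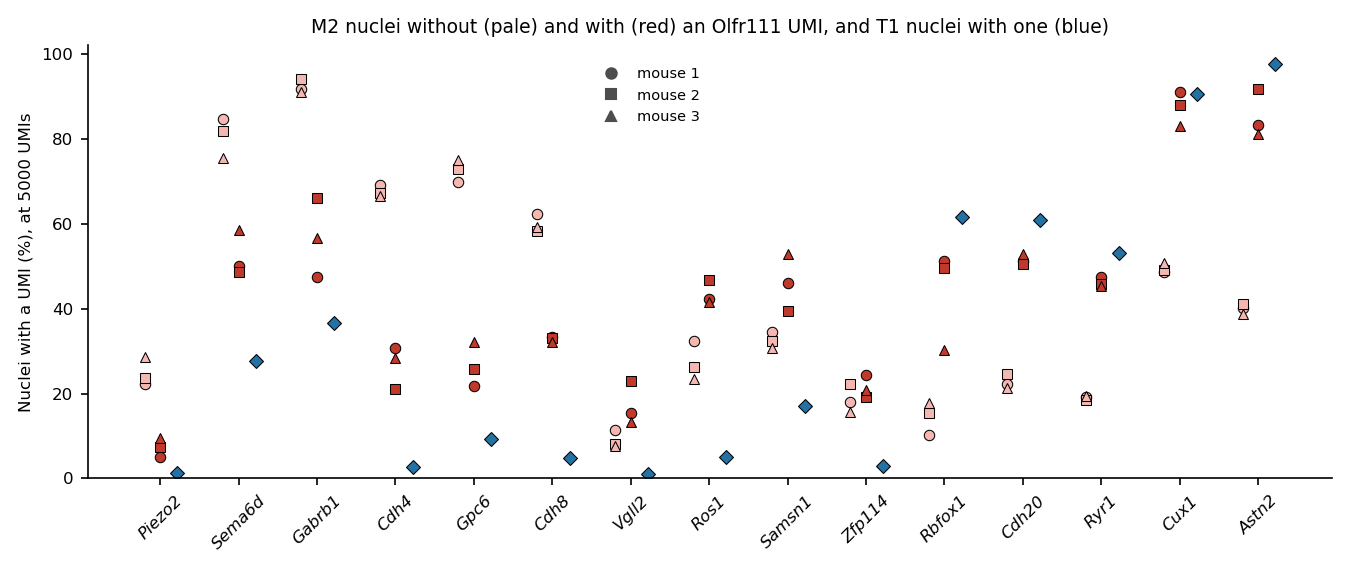
Percent of nuclei with a UMI of each gene, at 5000 UMIs per nucleus, in M2 nuclei without (pale) and with (red) an Olfr111 UMI, by mouse (symbol), and in T1 nuclei with one (blue diamonds, all mice). Piezo2 was in 24.7% of M2 nuclei without and 7.08% of those with Olfr111, and Astn2 in 40.1% and 86.7%.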

How the data were processed

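RNA of sorted nuclei was measured in 3 mice, 1 library each. The authors made the deposited counts, raw UMI numbers per gene and barcode, with Cell Ranger (version 3.0.2 per the file headers, builds mm10 and GRCm38 in the submitters' processing notes). A deposited table gives the retained nuclei with subcluster, UMI number and the percent of UMIs from mitochondrial genes, as the authors computed it. Its 6 other numeric columns were not used. UMI numbers in the table equalled those of the counts for all nuclei.

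Counts were summed per mouse and type and fitted over all 21 libraries in edgeR 4.0.16 (R 4.3.3; filterByExpr, TMM, quasi-likelihood test, Benjamini-Hochberg adjustment) without a mouse term, and M2 was contrasted with the mean of the 6 other types and with each. In simulated data with changes of 3-fold and 6-fold in this contrast, 100% of 100 genes each were recovered, with 2 calls among the other genes of 13959. The simulation otherwise gave all types the same profile, with 1 fixed spread and independent libraries, and changed no genes of low counts. It therefore does not show how well low genes, or libraries of the same mouse, are handled in the real data. Same-numbered libraries come from the same mouse: their deviations had a mean correlation of 0.187 (63 pairs) against -0.0933 between mice (126 pairs), and the fit with the mouse as a block was run as an alternative. Other alternatives were RLE factors, DESeq2 1.42.0, no filter on low counts, each mouse left out, thinning to 5000 UMIs, leaving out nuclei with a Gad1 or Gad2 UMI, and, chosen after seeing the data, leaving out the M1 library of mouse 1. No doublet caller was run. Each mouse is the replicate, and nuclei of 1 mouse are not.

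Genes are named by a rule: the 11 genes that the study lists for M2; the 12 highest and 8 lowest by fold change with M2 libraries apart and a mean of at least 10 CPM; members of gene lists, called or highest in M2; the 5 leading genes each way against M1, M3 and T1; the 10 most variable genes. Tead1, Slc17a7, Piezo1, Robo1, Zfhx4, Gad1, Malat1, Meg3, Snhg11 and the genes set beside Olfr111 fall outside the rule and were chosen after their values were seen. The members, lists and rule were chosen with earlier results of these data known. Promoter sequences are from RefSeq (GRCm38.p6). Of the 11 genes, 1 is not reported here.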

Additional observations from a re-analysis of the deposited data

How the results depend on the processing

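The 8 counts of genes called against the mean of the 6 other types, M1, M3 and T1 stayed within 1.5 times in the alternatives run. For the mean, genes higher ranged from 761 (nuclei thinned to 5000 UMIs) to 1506 (no filter on low counts) around 1004, and genes lower from 545 (without mouse 2) to 828 (RLE factors) around 777. Of the 1004, 874 were shared with DESeq2, 690 with the fit without Gad1 or Gad2 nuclei and 636 with the thinned fit. The mouse as a replicate block gave 1005 higher and 798 lower, 980 and 753 of them shared, and changed no count by over 1.5 times. The number of genes higher than in each of the 6 types was 52, and 34 to 43 with 1 mouse left out; the number lower was 27, and 17 to 25. In both, the lowest count was without mouse 2. The M2 share of the 7 types was 17.1% to 24.0% with 1 mouse left out, and the UMI ratio 1.46 to 1.57. Of 251 named genes, 1 lost or gained its call without the small M1 library, 13 to 21 lost it with 1 mouse left out, 17 of 224 after thinning and 9 with DESeq2, and no named gene changed direction. Vgll2 against M3 was not called by DESeq2 (log2 fold change 4.59). The shallowest libraries were M1 of mouse 1 and M3 of mice 1 and 3, with 161593 to 620677 UMIs, which limits low genes in them.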

Other observations

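Among the remaining genes called higher in M2 than in each of the 6 other types, chosen for mention after their values were seen, several encode enzymes or receptors outside the groups above. Hs3st5 and Hs3st3b1, sulfotransferases of heparan sulfate, had means of 187 to 594 CPM and 11.4 to 34.2 CPM in the other types, and 1654, 1565 and 1650.0 CPM and 76.7, 66.0 and 65.4 CPM in M2. Gatm, the first enzyme of creatine synthesis, had 26.3, 23.2 and 27.6 CPM in M2 against means of 4.47 to 11.3. Lmo2, a LIM-domain cofactor of blood development, had 26.9, 24.1 and 28.0 CPM against means of 2.01 to 12.1, and the cytokine receptor chain Il12rb2 had 28.4, 21.1 and 25.6 CPM against 7.26 to 12.8. Crym, which binds thyroid hormone, had 5.84, 6.09 and 6.56 CPM against means of 0.27 to 1.61. Among the 27 genes lower than in each type, Syne1, which links the nucleus to the cytoskeleton, had 54.7, 75.7 and 47.4 CPM against means of 187 to 530, and Tnik, a kinase of the Wnt pathway, had 56.0, 81.1 and 58.5 CPM against 213 to 504.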
